A study of Mus musculus with 2 samples.

Results

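The core and naive pluripotency factors are transcription factors that hold mouse embryonic stem cells (mESCs) in a state able to form all tissues of the embryo. Here 10 of their genes were followed, *Pou5f1*, *Sox2*, *Nanog*, *Esrrb*, *Zfp42*, *Klf2*, *Klf4*, *Klf5*, *Tbx3* and *Tfcp2l1*, of 31053 genes counted. They were chosen by name, and all 10 were detected. The data were 2 single-cell RNA-seq libraries of feeder-free E14 mESCs, a line of mouse embryonic stem cells, kept on gelatin in SL, which is medium with fetal bovine serum and leukemia inhibitory factor (LIF). WT cells were the parental line, and S1/5 dKO cells lacked *Smad1* and *Smad5* by CRISPR-Cas9 knockout. Which of the study's S1/5 dKO lines was used was not given in the sources used here. Each condition had 1 library, so no difference between the conditions could be tested, and all intervals below cover counting error only.

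After cells with under 1000 detected genes or over 5% mitochondrial UMIs were left out, 2236 WT cells and 2910 cells of the library labelled S1/5 dKO, called the dKO-labelled library from here, remained. A UMI is a tag that marks 1 captured RNA molecule. These cells held 95965242 and 109020533 UMIs, with medians of 38662 and 34549 UMIs a cell, and the libraries shared 0 cell barcodes. The targeted genes gave a mixed check of the labels. *Smad1* was at 13.4 CPM, the UMIs of a gene per 1000000 UMIs, in WT and 9.17 CPM in the dKO-labelled library. *Smad5* went against the label, with 6.05 CPM in WT beside 9.09 CPM in the dKO-labelled library. Reads at the 3′ end of a transcript do not show whether an edited exon still codes for protein. The pluripotent identity was clear in both libraries from the levels. The 32 genes of a list of other pluripotency genes, all detected, had a summed level of 9561 and 9787 CPM. *Dppa5a* was highest, at 4099 and 4310 CPM, and the median of the list was 91.0 and 93.3 CPM. Detection alone does not separate the lists, as all 10 primitive endoderm genes below were detected too. Markers of other cell types were low, at 17.5 and 12.1 CPM in sum for 10 primitive endoderm genes, 13.7 and 12.5 CPM for 8 trophoblast genes, and 1.19 and 1.33 CPM for 8 fibroblast genes. The 15 markers of the 2-cell-like state summed to 3.75 CPM in WT and 11.6 CPM in the dKO-labelled library. Of these sums *Gm8300* alone gave 1.51 and 6.15 CPM. Only 3 WT cells and 6 cells of the dKO-labelled library had 10 or more UMIs of that list.

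OCT4, the product of *Pou5f1*, and SOX2 bind DNA together at composite sites and are needed in all pluripotent cells. NANOG, ESRRB, TFCP2L1, TBX3 and the Krüppel-like factors KLF2, KLF4 and KLF5 stabilise the naive state, the state of the preimplantation epiblast, and LIF acts on several of them through STAT3. *Zfp42*, which encodes REX1, is a widely used marker of that state. In serum the naive factors, *Nanog* above all, are known to vary from cell to cell.

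The core factors differed in level by an order of magnitude, and hardly between the libraries. These CPM levels count captured 3′ ends and were not scaled to transcript length. *Pou5f1* (ENSMUSG00000024406, chr17:35506018-35510772, GRCm38, plus strand) had 126321 UMIs in WT, or 1316 CPM (95% Poisson interval 1309 to 1324), and 140895 UMIs in the dKO-labelled library, or 1292 CPM (1286 to 1299). *Sox2* (ENSMUSG00000074637, chr3:34650405-34652461, plus strand) was at 241 CPM (238 to 244) in WT and 244 CPM (241 to 247) in the dKO-labelled library. It lies within *Sox2ot*, a long noncoding RNA on the same strand that was not among the counted genes, so reads of the shared stretch may be counted as *Sox2*. *Nanog* (ENSMUSG00000012396, chr6:122707489-122714633, plus strand) was at 138 CPM (136 to 141) in WT and 142 CPM (140 to 144) in the dKO-labelled library. *Pou5f1* mRNA was thus the most abundant of the 10, and *Nanog* was well below it in both libraries.

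The start of *Nanog* holds a match to the joint OCT4 and SOX2 motif, which is shown because the motif is named for the products of *Pou5f1* and *Sox2*. RefSeq start-site windows (250 bases before to 50 after, GRCm38.p6) matched 8 of the 10 genes, in 11 windows, with none for *Tbx3* and *Klf5*. The match begins at position -73 from one annotated *Nanog* start and at -149 from the other, and is shown within chr6:122707407-122707436 on the plus strand, with the match in capitals:
*Nanog*: agcttctttTGCATTACAATGtccatggtg
The capitals are the reverse complement of the OCT-SOX motif, which leaves 1 base free and was searched on both strands, as were all motifs here. It occurred in 9 of 32817 windows (0.0274%), and *Nanog* was the only one of these genes with a match. *Zfp42* carries the octamer ATGCAAAT, the letters OCT4 binds, which begins at position -186 from its start, at chr8:43307179-43307204, written 5′ to 3′ on the minus strand, that of the gene, with the match, here the reverse complement of the octamer, in capitals:
*Zfp42*: tgaagaggcATTTGCATaactgagca
The octamer shares its first letters with the end of the OCT-SOX motif, and it occurred in 1.74% of all windows. The KLF motif GGGNGTGG was found in 5 of the 11 windows and in 17.6% of all windows. The 5 were the 2 windows of *Nanog*, which overlap and hold the same sites, 1 of the 2 windows of *Pou5f1*, and those of *Tfcp2l1* and *Zfp42*. The letters of the ESRRB motif TCAAGGTCA (0.424% of all windows), the STAT motif TTCCNGGAA (1.15%) and the TBX motif AGGTGTGA (1.27%) were in none of the 11. A match is a description of the letters and not evidence of binding.

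Among the naive factors, *Zfp42* stood far above the others. It (ENSMUSG00000051176, chr8:43295063-43306980, minus strand) was at 847 CPM (841 to 853) in WT and 875 CPM (870 to 881) in the dKO-labelled library. *Tbx3* (ENSMUSG00000018604, chr5:119670669-119684724, plus strand), a T-box factor, was at 60.4 CPM (58.9 to 62.0) in WT and 71.8 CPM (70.3 to 73.4) in the dKO-labelled library. *Tfcp2l1* (ENSMUSG00000026380, chr1:118627945-118685168, plus strand), a grainyhead-family factor downstream of LIF, was at 50.1 CPM (48.7 to 51.5) and 55.1 CPM (53.8 to 56.5). *Esrrb* (ENSMUSG00000021255, chr12:86361117-86521628, plus strand), an orphan nuclear receptor, was the lowest of the 10 in both libraries, at 43.3 CPM (42.0 to 44.6) and 47.8 CPM (46.5 to 49.2).

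The 3 Krüppel-like factors, zinc finger proteins that can partly stand in for each other, fell between these groups. *Klf2* (ENSMUSG00000055148, chr8:72319033-72321656, plus strand) was at 387 CPM (383 to 391) in WT and 366 CPM (362 to 369) in the dKO-labelled library. *Klf4* (ENSMUSG00000003032, chr4:55527143-55532466, minus strand) was at 128 CPM (126 to 130) and 145 CPM (142 to 147). *Klf5* (ENSMUSG00000005148, chr14:99298691-99315036, plus strand) was at 140 CPM (137 to 142) and 148 CPM (146 to 150). Otherwise the order of the genes was the same in both libraries, while *Nanog* and *Klf4*, just below *Klf5*, changed places. The counting intervals of *Klf5* and *Nanog* overlapped in WT, and those of *Nanog* and *Klf4*, and of *Klf4* and *Klf5*, overlapped in the dKO-labelled library. Barcodes with 10 to 100 UMIs, which hold mostly free RNA, also carried these genes. *Pou5f1* was there at 1403 and 1339 CPM and *Nanog* at 141 and 134 CPM, near their levels in cells, while *Sox2*, at 147 and 155 CPM, *Klf2*, at 288 and 257 CPM, and *Tbx3*, at 36.8 and 52.6 CPM, were lower there than in cells. The data hold no cell type that lacks these genes to measure that background in.

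**Figure D1:**
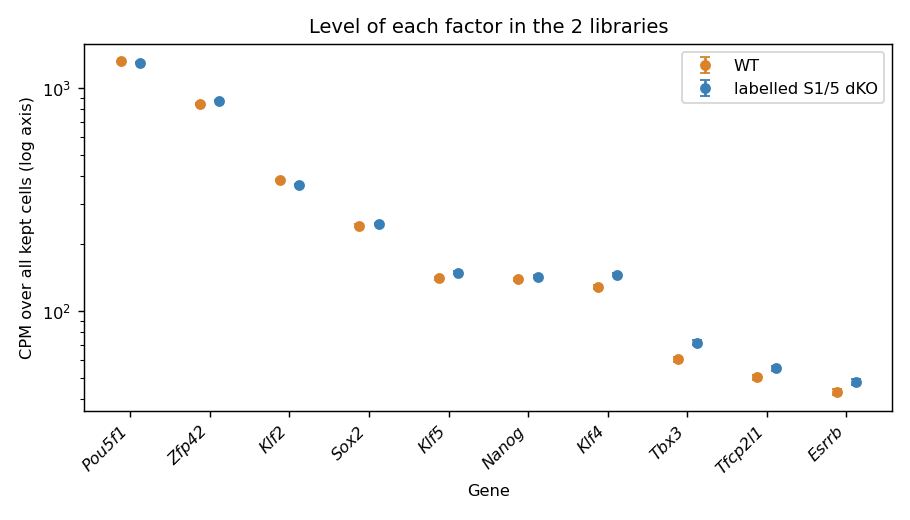
Level of each of the 10 genes in CPM, on a log axis, summed over all kept cells of the WT library (orange) and the dKO-labelled library (blue). Bars are 95% Poisson intervals and are mostly smaller than the points. The 2 points of each gene lie within 1.2-fold of each other, from *Pou5f1* at 1316 and 1292 CPM to *Esrrb* at 43.3 and 47.8 CPM.

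No factor differed by 1.2-fold or more between the libraries. Over the 13654 genes with at least 50 UMIs in both libraries together, 9.13% stood 1.2-fold or more above WT in the dKO-labelled library and 11.4% stood as far below it, so 0 of 10 stood beside 20.5% of all genes. The log2 ratio of the dKO-labelled library over WT was above 0 for 8 of the 10, with a median of 0.06 against -0.01 over all genes tested. *Tbx3* had the highest ratio, at 0.25 (95% interval 0.20 to 0.30), a fold of 1.19, just inside the limit. *Klf4* was at 0.18 (0.14 to 0.21), *Esrrb* at 0.14 (0.09 to 0.20) and *Tfcp2l1* at 0.14 (0.08 to 0.19). *Klf5* followed at 0.08, *Zfp42* at 0.05 and *Nanog* at 0.04. *Sox2* was at 0.02, with an interval from -0.01 to 0.04 that spans 0. The 2 below 0 were *Pou5f1* at -0.03 and *Klf2* at -0.08. Thus the core factors *Pou5f1*, *Sox2* and *Nanog* lay nearest to 0, and the 4 highest ratios were those of *Tbx3*, *Klf4*, *Esrrb* and *Tfcp2l1*. The counting intervals of *Nanog* (0.01 to 0.07) and *Zfp42* (0.03 to 0.06) overlapped, so these 2 were not set apart.

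The *Tbx3* ratio was not even across cells of different depth. When the cells of each library were sorted by their UMIs and cut into 4 equal bins, the log2 ratio was 0.11, 0.12, 0.18 and 0.39 from the shallowest to the deepest bin. *Klf4* followed the same course, with 0.09, 0.08, 0.13 and 0.28. *Esrrb* did not, with 0.30, 0.17, 0.02 and 0.16. The ratios of *Pou5f1*, *Sox2*, *Nanog* and *Zfp42*, near 0 over all cells, did not keep 1 sign over the bins. *Nanog* was at -0.09, 0.07, 0.01 and 0.08. *Klf2* lies in a segment of chromosome 8, from *Borcs8* to *Smad1*, whose genes were low in the dKO-labelled library. In that segment, whose ends were drawn with these values known, 98 of 102 genes had a ratio below 0 and the median was -0.53, beside 0.00 over the other 657 genes of the chromosome. *Klf2* itself, at -0.08, was far above that median. The part of the segment in the *Klf2* ratio was not tested.

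Within each library the factors varied from cell to cell by more than counting alone gives. To compare cells, each was set to an equal depth of 20000 UMIs, which left 2113 WT cells and 2689 cells of the dKO-labelled library and left out 123 and 221 shallower ones. The spread is given as the Fano factor, the variance across cells over the mean, which is 1 for a Poisson count. In each library 9 of 10 factors reached a Fano factor of 1.2, all but *Esrrb*. Of all genes with a mean of at least 0.5 UMIs, 30.4% of 4072 did so in WT and 31.0% of 4066 in the dKO-labelled library. The median Fano factor of the 10 was 1.74 and 1.87, beside 1.12 in each library over all these genes. The Fano factor rises with the mean, so these values compare genes of unlike means. Each factor was also above the median of the genes with a mean within 2-fold of its own. In WT that median ran from 1.08 for *Esrrb* to 1.24 for *Klf2*, 1.43 for *Zfp42* and 1.63 for *Pou5f1*.

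*Klf2* varied most among the factors by this measure. With a mean of 7.65 UMIs in WT and 7.20 UMIs in the dKO-labelled library, its Fano factor was 4.08 and 3.80, which ranked it 48th of 4072 and 58th of 4066 genes. In 1 draw to equal depth the WT cells ran from 0 to 45 *Klf2* UMIs, with a median of 7. The lowest 10% of cells had 2 or fewer and the highest 10% had 15 or more. No *Klf2* UMI was found in 3.98% of WT cells and 3.57% of the others, where a Poisson count of the same mean gives 0.0476% and 0.0745%. The distribution was broad and had a long upper tail, with no gap between low and high cells.

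*Zfp42* followed with a Fano factor of 2.56 in both libraries, around means of 16.8 and 17.3 UMIs. *Klf4* had 1.98 in WT and 1.97 in the dKO-labelled library. *Pou5f1* had 1.84 and 1.83, but the Fano factor rises with the mean, and the 144 WT genes with a mean within 2-fold of it had a median of 1.63. *Klf5* had 1.70 and 1.74, and *Sox2* 1.64 and 1.74. *Tfcp2l1* had 1.32 and 1.43, and *Esrrb* 1.15 in each library. These genes kept the same order of spread in both libraries except for *Klf5* and *Sox2*, which were level in the dKO-labelled one.

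*Nanog* and *Tbx3*, like *Sox2* and *Tfcp2l1* above, had a higher Fano factor in the dKO-labelled library than in WT. The *Nanog* Fano factor was 1.77 in WT and 1.97 in the dKO-labelled library, around means of 2.73 and 2.81 UMIs. No *Nanog* UMI was found in 14.2% of WT cells and 15.2% of the others, beside 6.55% and 6.03% for a Poisson count. The *Tbx3* Fano factor was 1.602 in WT and 1.906 in the dKO-labelled library, around means of 1.203 and 1.397 UMIs. The share of cells without a *Tbx3* UMI was nearly equal, 39.8% and 40.2%, although the mean was higher in the dKO-labelled library, where a Poisson count gives 24.7% beside 30.03% in WT. The highest 10% of cells had 3 or more *Tbx3* UMIs in WT and 4 or more in the dKO-labelled library. Whether libraries of the same genotype differ as much could not be measured with 1 library a condition.

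**Figure D2:**
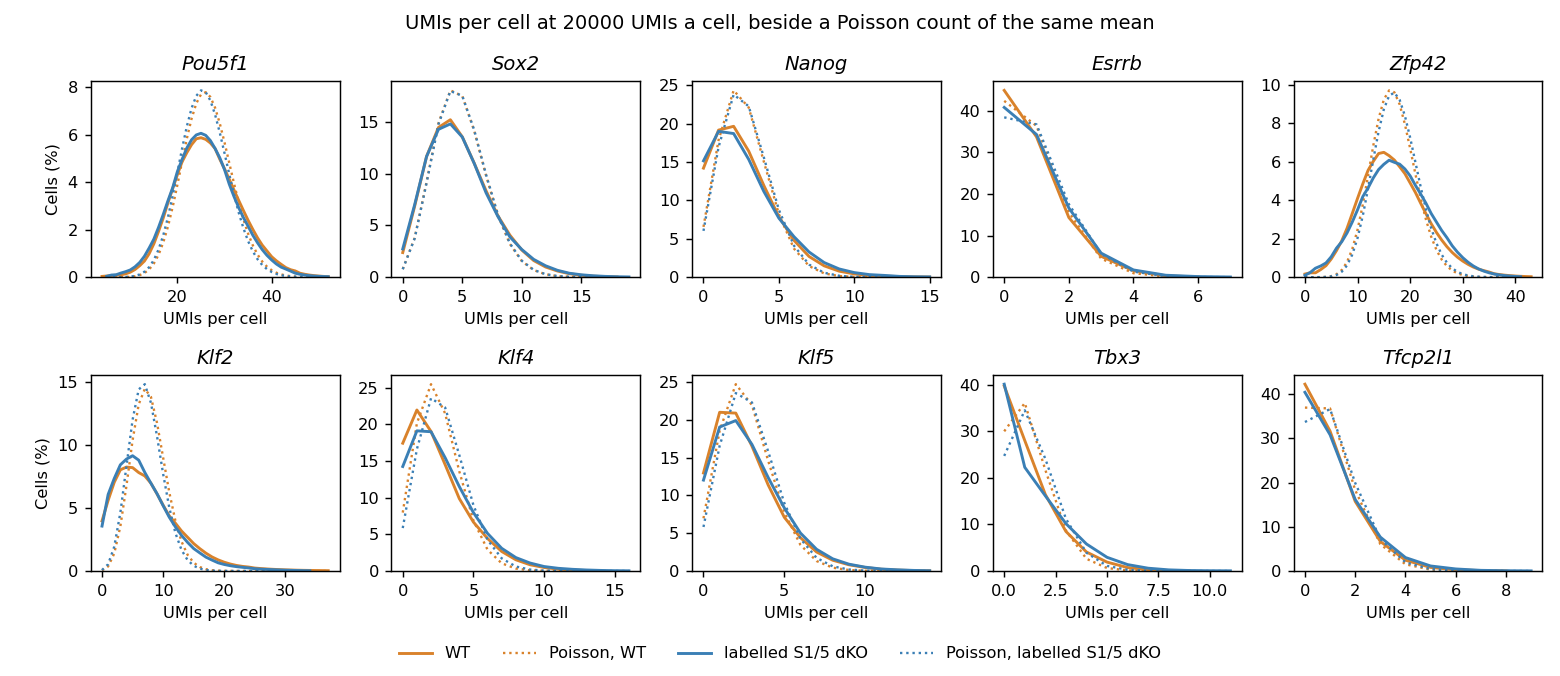
Share of cells (vertical axis, %) with each number of UMIs (horizontal axis) at 20000 UMIs a cell, for the 10 genes in WT (orange) and the dKO-labelled library (blue), with a Poisson count of the same mean as a dotted line. The measured curves are lower and broader than the dotted ones for *Klf2*, *Zfp42*, *Pou5f1*, *Sox2*, *Nanog*, *Klf4* and *Klf5*, and nearly on them for *Esrrb*.

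Taken as a share of the mean, the order was another one. The excess coefficient of variation, the square root of the variance beyond the Poisson part over the mean, was lowest for *Pou5f1*, at 17.8% in WT and 17.96% in the dKO-labelled library. *Zfp42* had 30.4% and 30.03%, and *Sox2* 36.3% and 39.1%. *Esrrb* had 41.6% and 39.2%, *Klf5* 51.4% and 50.9%, and *Nanog* 53.2% and 58.8%. *Tfcp2l1* had 56.6% and 62.7%, *Klf4* 62.4% and 58.5%, and *Klf2* 63.5% and 62.4%. *Tbx3* was highest, at 70.8% in WT and 80.5% in the dKO-labelled library. *Pou5f1* was therefore the most even factor across cells relative to its level, and *Tbx3* the least even.

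**Figure D3:**
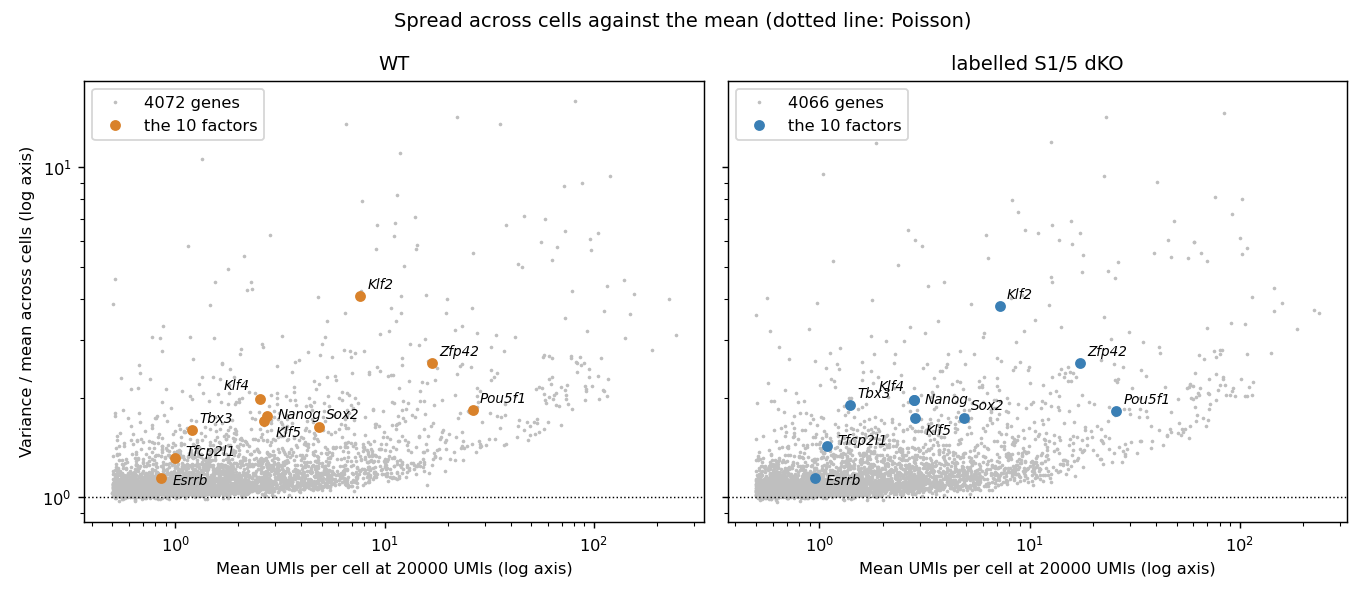
Fano factor (variance over mean, log axis) against the mean UMIs per cell at 20000 UMIs a cell (log axis) for all genes with a mean of at least 0.5 (grey) and the 10 factors (coloured), with WT on the left and the dKO-labelled library on the right. The dotted line is the Poisson value of 1. *Klf2*, at 4.08 and 3.80, is the highest of the factors, and *Esrrb*, at 1.15 in each, the lowest.

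The factors tended to be high in the same cells. Across cells at equal depth, 22 of the 45 pairs had a Pearson correlation of at least 0.1 in WT and 28 of 45 in the dKO-labelled library, with 20 pairs in both. Over all pairs of genes with a mean of at least 0.5 UMIs, 1.21% reached 0.1 in WT and 1.55% in the dKO-labelled library. No pair of factors was at -0.1 or below, where 0.573% and 0.784% of all pairs were. The correlations were weak in size, with medians of 0.10 and 0.11 over the 45 pairs, beside 0.00 over all pairs in each library. The factors also had a wider spread than all these genes, with median Fano factors of 1.74 and 1.87 beside 1.12. Pairs of genes matched in mean or spread were not set beside them. The correlations describe 2113 and 2689 cells of 1 library each, and cells of a library are not replicates.

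*Zfp42* was linked most widely, with a correlation of at least 0.1 with 8 of the other 9 factors in WT and all 9 in the dKO-labelled library. Its correlation with *Nanog* was the highest of all pairs, at 0.24 and 0.28. With *Klf4* it was 0.23 and 0.27. Counting noise lowers a correlation between low counts, and dividing the covariance by the variance beyond the Poisson part corrects for it. So corrected, *Nanog* and *Zfp42* stood at 0.46 in WT and 0.52 in the dKO-labelled library, and *Zfp42* and *Klf4* at 0.42 and 0.50. The highest corrected values were those of the scarce mRNAs, *Esrrb* with *Tfcp2l1* at 0.60 and 0.55 and *Tbx3* with *Tfcp2l1* at 0.53 and 0.62. These rest on small excess variances and are the least certain.

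The 2 most basic factors were not linked to each other. *Pou5f1* and *Sox2* had a correlation of -0.02 in WT and -0.03 in the dKO-labelled library, the lowest of all pairs in both. *Sox2* and *Nanog* were at 0.02 and -0.01, and *Pou5f1* and *Nanog* at 0.06 and 0.08. *Pou5f1* reached 0.1 with 1 factor in WT, *Zfp42* at 0.13, and with 3 in the dKO-labelled library, *Zfp42* at 0.17, *Tbx3* at 0.11 and *Klf4* at 0.10. *Sox2* was linked to *Klf4*, at 0.16 and 0.15, to *Zfp42*, at 0.14 and 0.12, and to *Klf5*, at 0.11 and 0.12. *Klf2*, the factor with the highest Fano factor, had weak correlations with the other Krüppel-like factors, at 0.04 and 0.06 with *Klf4* and -0.01 and 0.03 with *Klf5*, whereas *Klf4* and *Klf5* were at 0.16 and 0.18.

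Of the 45 pairs, 32 had a higher value in the dKO-labelled library than in WT. Over all pairs of genes, more also reached 0.1 there, 1.55% beside 1.21%, and more were at -0.1 or below, 0.784% beside 0.573%. The share of all pairs with a higher value there was not measured, so the 32 do not show a trait particular to the factors. Among the 45 pairs, the larger gaps were those of *Tbx3*. Its correlation with *Klf5* was 0.09 in WT and 0.19 in the dKO-labelled library, that with *Nanog* 0.15 and 0.23, that with *Zfp42* 0.14 and 0.22, and that with *Tfcp2l1* 0.16 and 0.23. *Klf2* went the other way with *Nanog*, *Esrrb*, *Tbx3* and *Tfcp2l1*, such as 0.13 and 0.10 with *Nanog*. *Tbx3* also had the wider spread in the dKO-labelled library, and these differences between single libraries have no replicate check. At 10000 UMIs a cell 10 pairs in WT and 12 in the dKO-labelled library reached 0.1. With the same cells as at 20000 UMIs, 7 and 11 did so. The share of all pairs that reached 0.1 at 10000 UMIs was not measured.

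**Figure D4:**
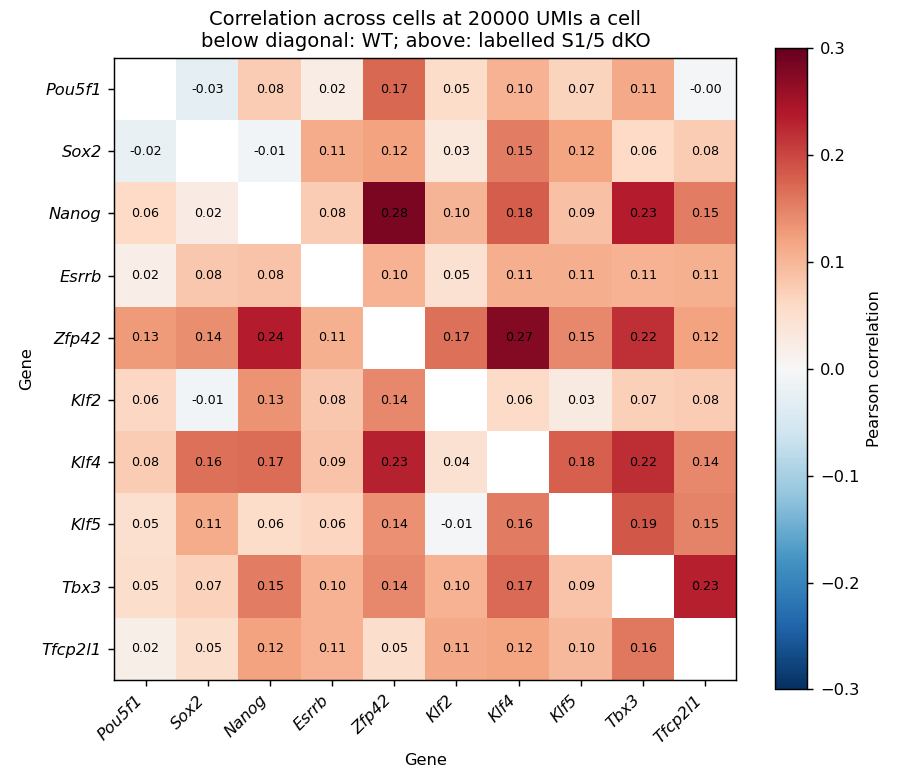
Pearson correlation across cells at 20000 UMIs a cell for the 45 pairs of factors, with WT below the diagonal and the dKO-labelled library above it. Colour and number give the correlation. *Nanog* with *Zfp42* is highest, at 0.24 and 0.28, and *Pou5f1* with *Sox2* lowest, at -0.02 and -0.03.

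Counting how many of the 10 factors a cell showed gave the same picture. In 1 draw of 20000 UMIs a cell, the median cell had at least 1 UMI of 8 factors in each library. All 10 were found in 338 of 2113 WT cells, or 16.0%, and in 500 of 2689 cells of the dKO-labelled library, or 18.6%. If the factors were detected independently of each other, the shares would be 11.0% and 12.6%. At the other end, 5 or fewer factors were found in 56 WT cells, or 2.65%, and in 79 others, or 2.94%, beside 0.845% and 0.662% under independence. Both ends were thus fuller than independence gives, and no cell of either library lacked all 10, the fewest being 2 in WT and 4 in the dKO-labelled library.

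Cells were also split by *Nanog*, the factor best known for its uneven expression. In the draw 311 WT cells had 0 *Nanog* UMIs, 803 had 1 to 2, 782 had 3 to 5 and 217 over 5, and in the dKO-labelled library the numbers were 406, 1012, 916 and 355. The median total UMIs rose somewhat along the split, from 38810 to 41478 in WT and from 33925 to 37677 in the dKO-labelled library. *Zfp42* rose in step, with means of 14.3, 16.1, 17.8 and 19.4 UMIs in WT and 13.8, 16.6, 18.5 and 20.6 UMIs in the dKO-labelled library. *Klf4* went from 1.95 to 3.28 UMIs in WT and from 2.19 to 3.58 UMIs in the other library, and *Klf2* from 6.35 to 8.79 and from 6.16 to 8.18. *Pou5f1* and *Sox2* were nearly flat, with a ratio of cells over 5 to cells at 0 of 1.04 and 1.102 in WT and of 1.08 and 0.94 in the dKO-labelled library. The ratio was highest for *Tbx3*, at 1.84 and 2.40, though its means, from 0.88 to 1.63 and from 0.86 to 2.06 UMIs, are near 1 UMI a cell. Those of *Tfcp2l1*, 1.65 and 1.99, and *Esrrb*, 1.13 and 1.53, rest on equally low counts. The summed genes of a formative and primed list, which mark the step after the naive state, went the other way, with ratios of 0.90 and 0.85. *Tcf15* held 71.2% and 75.03% of the UMIs of that list, with ratios of 0.97 and 0.89, and the list without it had ratios of 0.77 and 0.75. The G2/M genes, which mark cells near division, were higher in cells over 5, with ratios of 1.17 and 1.15. Their part in the split was not tested.

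**Figure D5:**
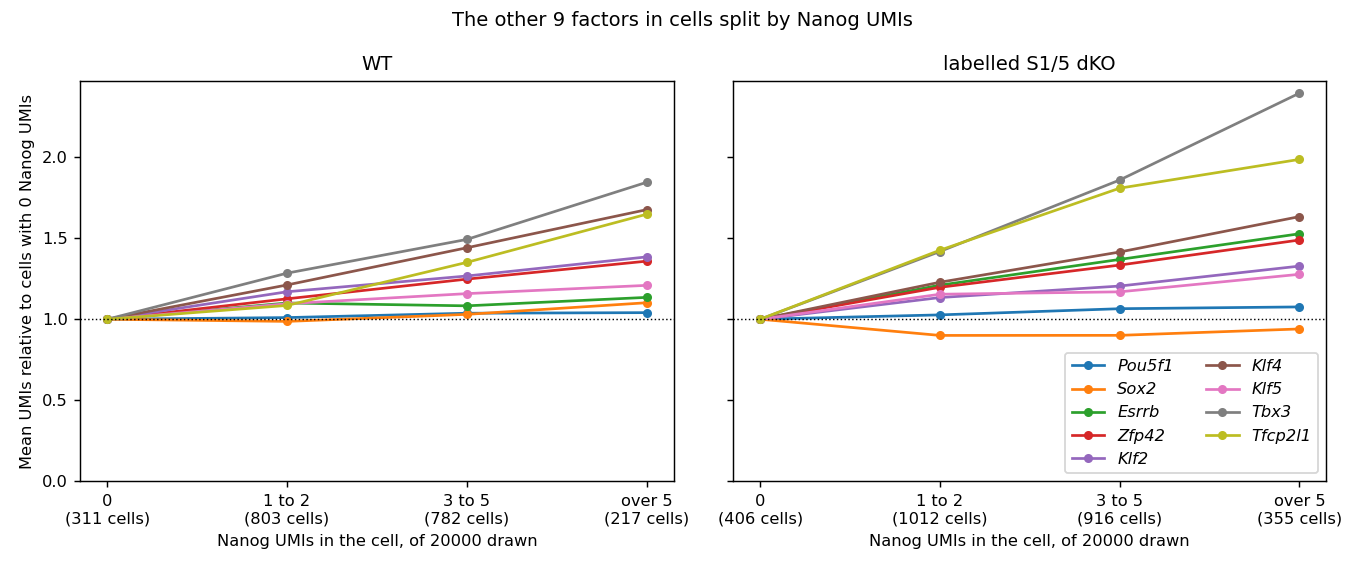
Mean UMIs of the other 9 factors in cells split by *Nanog* UMIs, relative to cells with 0 *Nanog* UMIs, in 1 draw of 20000 UMIs a cell, with WT on the left and the dKO-labelled library on the right. *Tbx3* rises most, to 1.84 and 2.40 times its mean in cells without *Nanog*, and *Pou5f1* and *Sox2* end at 1.04 and 1.102 in WT and at 1.08 and 0.94 in the dKO-labelled library.

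For the 4 factors with the highest Fano factor in WT, the genes most like them were listed in WT and read in the other library, as a description. *Klf2* went with *Apoe*, the apolipoprotein, at 0.23 in WT and 0.24 in the dKO-labelled library, and with *Ubald2*, at 0.21 and 0.18, and *Sod2*, the mitochondrial superoxide dismutase, at 0.21 and 0.17. It was lowest with *Utf1*, a chromatin factor of pluripotent cells, at -0.15 and -0.12, and with the histone gene *Hist1h2ap*, at -0.14 and -0.19. *Zfp42* went with *Zfp57*, a zinc finger protein that guards imprints, at 0.28 and 0.29, with *Mymx*, a small membrane protein of cell fusion, at 0.23 and 0.23, and with *Eif2s2*, a translation initiation factor subunit, at 0.20 and 0.19. It was lowest with *Traf4*, at -0.16 and -0.15, and *Perp*, at -0.15 and -0.13.

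*Klf4* went with *Cdc5l*, a splicing factor, at 0.19 and 0.17, *Kat6b*, a histone acetyltransferase, at 0.18 and 0.16, and *Cobl*, an actin nucleator, at 0.17 and 0.20. *Klf4* was lowest with *Dynll1*, a dynein light chain, and *Mif*, both at -0.16 in WT and at -0.15 in the dKO-labelled library. *Pou5f1* went with *Dppa5a*, an RNA-binding protein of pluripotent cells, at 0.24 and 0.27, with *Gabarapl2*, an autophagy protein, at 0.20 and 0.26, and with *Hspb1*, a small heat shock protein, at 0.20 and 0.25. It was lowest with *Fxyd6*, at -0.16 and -0.20, and with *Tpm1*, at -0.14 and -0.18. Among 3969 genes ranked, the first partner of *Klf2*, *Zfp42* and *Pou5f1* in WT was also first in the dKO-labelled library, and that of *Klf4* was 5th.

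Many of the other pluripotency genes were high in the same cells as the factors. Of 260 pairs of a factor with 1 of its 26 genes abundant enough, 59 reached 0.1 in WT and 75 in the dKO-labelled library, or 22.7% and 28.8%, beside 1.21% and 1.55% of all pairs. The highest in WT after *Zfp57* with *Zfp42* and *Dppa5a* with *Pou5f1* was *Tet1*, an enzyme that oxidises methylated DNA, with *Sox2*, at 0.22 and 0.23. At or below -0.1 were 4 pairs in WT and 9 in the dKO-labelled library, or 1.54% and 3.46%, beside 0.573% and 0.784% of all pairs. The lowest in WT were *Utf1* with *Klf2*, as above, *Nr0b1*, an orphan nuclear receptor, with *Klf4*, at -0.14 and -0.11, and *Utf1* with *Tfcp2l1*, at -0.13 and -0.18. Between the libraries, 1 of the 32 genes of the list was at least 1.2-fold higher in the dKO-labelled library, *Dppa3* with a log2 ratio of 0.96 between 2.31 and 4.49 CPM, and 1 was at least 1.2-fold lower, *Fgf4*, a growth factor, at -0.30. The other 30 lay within 1.2-fold, and the median was 0.02.

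The factors also varied with the general make-up of the cell. Against the sum of the ribosomal protein genes, *Sox2* had a correlation of -0.24 in WT and -0.19 in the dKO-labelled library, and *Klf5* -0.21 and -0.22. *Pou5f1* was at 0.07 and 0.13, and *Klf2* at 0.02 and 0.00. The ribosomal protein genes held 25.8% of UMIs in WT and 25.2% in the dKO-labelled library. With each cell set to a fixed total, UMIs of these genes leave fewer for the others. Against the G2/M genes *Klf2* had 0.13 and 0.16 and *Nanog* 0.11 and 0.13. Against the S phase genes *Klf2* had -0.11 in each library and *Tbx3* 0.10 and 0.16. The correlations of all other genes with these sums were not measured, so the values do not show a trait particular to the factors. With the ribosomal, mitochondrial, G2/M and S phase UMIs held fixed as a partial correlation, an alternative added after seeing the data, 17 pairs of factors reached 0.1 in WT and 19 in the dKO-labelled library. All 17 were among the 22 pairs without the adjustment, and 18 of the 19 were among the 28. The share of all gene pairs that reached 0.1 after this adjustment was not measured.

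*Id1* crossed the factors in a way that differed between the libraries. It encodes an inhibitor of helix-loop-helix factors and is a direct target of SMAD1 and SMAD5 downstream of bone morphogenetic proteins (BMP). Its level was 323 CPM in WT and 161 CPM in the dKO-labelled library. In WT 0 of 10 factors had a correlation of at least 0.1 with *Id1*, and in the dKO-labelled library 4 of 10 did. The share of all genes that reached 0.1 with *Id1* was not measured in either library. These counts therefore do not show whether the difference is particular to the factors. *Klf5* was at -0.03 in WT and 0.17 in the dKO-labelled library, *Tbx3* at -0.03 and 0.16, *Pou5f1* at -0.01 and 0.14 and *Klf2* at 0.06 and 0.14. *Sox2*, at -0.05 and -0.07, did not share this. Of the BMP list, *Id1*, *Id3* and *Smad7* were abundant enough to be set against the factors. Of their 30 pairs with a factor, 1 reached 0.1 in WT and 9 in the dKO-labelled library, beside the 1.21% and 1.55% of all pairs. Those in the dKO-labelled library were pairs of *Id1* or *Smad7*. *Id3* reached 0.1 with no factor, and ran there from -0.08 with *Klf5* to 0.098 with *Nanog*. *Smad7*, unlike *Id1*, was not 1.2-fold lower in the dKO-labelled library, with a log2 ratio of -0.05. The comparison with *Id1* was added after seeing the data, and with 1 library a condition the difference was not tested.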

How the data were processed

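The authors aligned 10x Genomics 3′ v3 reads to mm10 with Cell Ranger 3.0.2, per the labels, and deposited raw UMI counts per gene and barcode, not normalized and with every barcode kept. From these counts barcodes were kept that showed 1000 or more genes and no more than 5% mt- UMIs. Levels are summed UMIs of a gene per 1000000 UMIs (CPM), with exact 95% Poisson intervals, and ratios have exact binomial intervals. Spread and correlation are expectations over all draws of 20000 UMIs a cell without replacement. Single draws used a fixed seed. The computations used pandas 2.3.3, scipy 1.17.1 and numpy 2.4.6 under Python 3.11.15, and edgeR 4.0.16 for an alternative scaling, and were tested on simulated data. Gene positions came from GENCODE for GRCm38, which matched 30934 of 31053 gene IDs.

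With 1 library a condition no test was made. The factors, gene lists (other pluripotency, formative and primed, LIF and STAT3, BMP and Wnt targets, G2/M, S phase, ER stress, and markers of other cell types) and call limits were chosen with earlier results of these data known. Named genes are the 10 factors, *Smad1*, *Smad5*, the 3 highest and 3 lowest of a list by the value discussed, and, for the 4 factors with the highest Fano factor in WT, the 3 most and 2 least correlated other genes. *Borcs8*, *Id1* and members of lists named outside this rule were chosen after their values were seen. Doublets were not called, and cells over 2 times the median UMIs were left out as an alternative.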

Additional observations from a re-analysis of the deposited data

How the results depend on the processing

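The counts of factors at least 1.2-fold apart (0 of 10) were the same under 8 alternatives of cell filter and scaling. edgeR's TMM and equal depth were among them. All 80 log2 ratios of single factors kept their direction under these alternatives, with *Tbx3* between 0.22 and 0.26. The bins of cell depth were not among the alternatives. Of 140 Fano factors 138 stayed on their side of 1.2, the exceptions being *Tfcp2l1* in WT, at 1.16 with 10000 UMIs a cell in either set of cells. The count of pairs with a correlation of at least 0.1 was 10 in WT and 12 in the dKO-labelled library at 10000 UMIs a cell. It was 7 and 11 at that depth with the cells kept the same as at 20000 UMIs, an alternative added after seeing the data. Corrected for counting noise it was 38 in WT. The share of all pairs that reached 0.1 was not measured at 10000 UMIs or with this correction. By Spearman's rho 1 factor reached 0.1 with *Id1* in WT. Of 62 counts 56 lay within 1.5 times the reported value. The background shares move with the genes tested: 14.2% of genes were at least 1.2-fold apart among those with 200 UMIs or more and 33.7% among those with any UMI in each library, against 20.5%, and with a mean of at least 0.2 UMIs 0.578% and 0.748% of pairs reached 0.1. No replicate could be left out. No paired analysis was possible because each condition has 1 library.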

Other observations

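Genes of other pathways were set against the factors across cells, beside shares over all pairs of 1.21% and 1.55% at 0.1 or above and of 0.573% and 0.784% at -0.1 or below. Of the pairs of a factor with a LIF and STAT3 target, 1 of 60 had a correlation of at least 0.1 in each library, *Pim3*, a survival kinase, with *Klf5*, at 0.10 in both. At or below -0.1 were 1 of 60 in WT, *Junb* with *Zfp42*, and 4 of 60 in the dKO-labelled library, all with *Pim1*, a relative of *Pim3*. *Pim1* was at -0.05 in WT and -0.17 in the dKO-labelled library with *Pou5f1*, at -0.09 and -0.15 with *Zfp42*, at -0.04 and -0.15 with *Tbx3* and at -0.07 and -0.10 with *Klf4*. Of 30 pairs with formative and primed genes, 2 reached 0.1 in WT and 1 in the dKO-labelled library, and 0 and 2 were at -0.1 or below. Both WT pairs involved *Tcf15*, a helix-loop-helix factor, which was at 0.18 and 0.17 with *Pou5f1* and at 0.11 and 0.09 with *Klf5*. Of 60 ER stress pairs, 1 and 2 reached 0.1 and none was at -0.1 or below. Of 170 S phase pairs, 1 and 11 reached 0.1 and 1 and 2 were at -0.1 or below. Of 10 Wnt target pairs, all with *Ccnd1*, 0 did in either library. Of 180 G2/M pairs 17 and 26 reached 0.1 and 3 and 2 were at -0.1 or below, with *Top2a* and *Klf5* at 0.16 in each library.

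Between the libraries, where 11.4% of all genes were at least 1.2-fold lower in the dKO-labelled library and 9.13% at least 1.2-fold higher, 7 of 8 BMP targets were at least 1.2-fold lower in the dKO-labelled library, with a median log2 ratio of -0.62. *Sp5*, *Notum* and *Cdx1* of 8 Wnt targets tested were at least 1.2-fold higher there, at 1.05, 0.41 and 1.097. Of 14 formative and primed genes tested, 4 were at least 1.2-fold lower, *Krt18* at -0.79, *Zic2* at -0.71, *Sox3* at -0.69 and *Fgf15* at -0.37. Of the same 14 genes 0 were at least 1.2-fold higher, and their median was 0.02. The highest were *Tcf15* at 0.24, *Dnmt3a* at 0.22 and *Otx2* at 0.22. Of 8 LIF and STAT3 targets 1 was higher, *Pim1* at 0.39. In the cell cycle lists 0 of 18 G2/M genes and 1 of 18 S phase genes were at least 1.2-fold apart, and of 12 ER stress genes 0 were. None of these differences has a replicate check.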
